A study of Mus musculus with 7 samples.

Results

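The miR-21a hairpin yields 2 mature miRNAs, miR-21a-5p and miR-21a-3p, and their reads were followed across 7 small RNA libraries of mouse hepatocytes. The tables list them as mmu-miR-21a-5p and mmu-miR-21a-3p, 2 of 1966 mature miRNA names, and both passed the filter on low counts, as did 450 miRNAs in all. The libraries belong to ALAS12-KO hepatocytes (n = 4) and WT hepatocytes (n = 3). ALAS is 5-aminolevulinate synthase, which carries out the first step of heme synthesis, and the study asked how ALAS bears on small RNAs. Every library of both genotypes has the treatment label TMX, which the labels do not spell out, and they name neither a Cre driver nor the animals' ages. The labels describe collagenase perfusion of the liver and repeated slow spins that enrich hepatocytes, so other liver cells may remain. They do not say that replicates came from separate mice, and the spread between libraries may therefore be partly technical.

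The arms were taken by name, and the hairpin was chosen on the levels of miR-21a-5p and miR-21a-3p in these same libraries, whose difference between the genotypes was already known. Its levels, its fold change and the ratio of its arms between ALAS12-KO and WT are therefore given as a description, with no test.

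miR-21 is transcribed from its own promoter inside the Vmp1 locus, and its primary transcript is cut by Drosha and Dicer into a short duplex of which mostly the 5p strand is loaded into Argonaute. The loaded strand lowers mRNAs that pair with its seed, bases 2 to 8 of the miRNA, and the mRNA of Pdcd4, an inhibitor of translation initiation, is a well-known target. Transcription of miR-21 is driven by STAT3 and AP-1, and in liver the miRNA is known for its rise in regeneration, steatohepatitis and fibrosis.

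The mature sequences, credited to RefSeq on GRCm38.p6, are shown because the arms have different seeds and because related genes could share their reads. Each is written 5′ to 3′ with the seed in capitals.
miR-21a-5p: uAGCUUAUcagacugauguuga
miR-21a-3p: cAACAGCAgucgaugggcuguc
miR-21b: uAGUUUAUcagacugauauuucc
miR-21c: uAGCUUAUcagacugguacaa
Both arms of miR-21a are 22 bases long, and the 5p arm starts with U and holds 36.4% G and C, against a start with C and 59.1% in the 3p arm. In the fold predicted by RNAfold, 19 of the 22 bases of the 5p arm pair within the 3p arm.

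The hairpin gene, Mir21a, is on the minus strand of chromosome 11, from 86584067 to 86584158, in exon 12, the last of the Vmp1-201 transcript, and within its 3′ UTR. Vmp1 encodes a membrane protein of autophagy. The 5p arm occupies chr11:86584120-86584141 and the 3p arm chr11:86584082-86584103. A target site is shown to make the role of the seed visible. The 3′ UTR of Pdcd4 holds 1 site complementary to the 5p seed (ATAAGCT, searched on the transcript strand). The 22 bases shown, with the site in capitals, span chr19:53929418-53929439 on the plus strand of GRCm38.
Pdcd4 site: gtgtgggtgttctgATAAGCTa
The same 7 letters occur in the longest 3′ UTR of 7.19% of 21022 genes and in 3.25% of the 1168 3′ UTRs whose length is within 10% of that of Pdcd4. A match is a description of the sequence, and no mRNA was measured in these libraries.

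The libraries held 10093244 to 17091539 miRNA reads in ALAS12-KO and 7719180 to 21962191 in WT. Hepatocyte markers took 60.7% to 69.3% of miRNA reads in ALAS12-KO and 63.4% to 66.2% in WT, most of it miR-122-5p. Mature miRNA counts do not measure Alas1 or Alas2, so the genotypes could not be checked by the loss of either transcript. ALAS12-KO replicate 1 had the lowest shares of markers of other liver cells. Endothelial markers took 1.10% of its miRNA reads and leukocyte markers 0.230%, while ALAS12-KO replicates 2 to 4 had 2.55% to 3.65% and 0.498% to 0.739%.

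miR-21a-5p was the second most abundant miRNA in all 7 libraries, behind miR-122-5p, and it stood higher in the ALAS12-KO libraries. Levels are given as CPM, reads scaled to a library total of 1000000 miRNA reads. miR-21a-5p had 51744, 42056, 77365 and 66109 CPM in ALAS12-KO replicates 1 to 4, against 41968, 35515 and 38577 CPM in WT replicates 1 to 3. The ALAS12-KO libraries were all above the WT libraries, but the lowest of them, replicate 2, exceeded the highest WT library by 0.209%. Of all tested miRNAs, 5.33% had every ALAS12-KO library above every WT library on this scale, and 20.7% had groups apart in either direction. The mean was 59318 ± 15569 CPM in ALAS12-KO and 38687 ± 3228 CPM in WT (SD, n = 4 and n = 3), a ratio of means of 1.53.

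The step down to the next miRNA was wider in ALAS12-KO. There the third most abundant miRNA was let-7f-5p, a member of the let-7 family that restrains growth, and miR-21a-5p had 1.37 to 2.35 times its reads. In WT the third was miR-16-5p or, in replicate 3, the endothelial miR-126a-3p, and miR-21a-5p had 1.07 to 1.19 times its reads. miR-122-5p exceeded miR-21a-5p 6.91-fold to 14.2-fold in ALAS12-KO and 13.6-fold to 16.7-fold in WT, so on this within-library ratio ALAS12-KO replicate 2 lay inside the WT range.

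miR-21a-3p, the arm that is mostly discarded, was also higher in ALAS12-KO but by less. It stood at 191, 139, 144 and 168 CPM in ALAS12-KO replicates 1 to 4, against 135, 124 and 121 CPM in WT replicates 1 to 3, from 931 to 2749 reads per library. The groups did not overlap, with ALAS12-KO replicate 2 again the lowest of its group, 2.81% above the highest WT library. The mean was 160 ± 24.0 CPM in ALAS12-KO and 126 ± 7.53 CPM in WT (SD, n = 4 and n = 3), a ratio of means of 1.27. By abundance it ranked 74 to 98 among the miRNAs of a library in ALAS12-KO and 99 to 104 in WT.

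**Figure D1:**
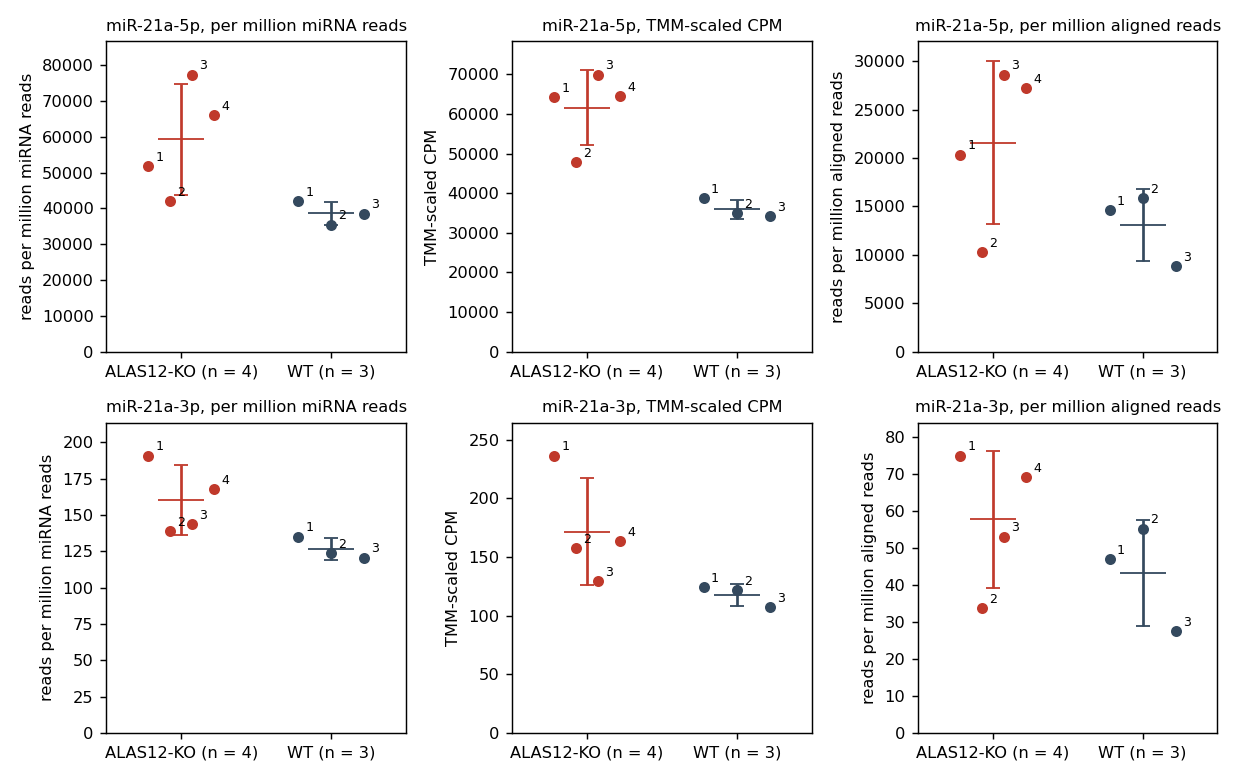
Levels of miR-21a-5p (top) and miR-21a-3p (bottom) in each library, as CPM, TMM-scaled CPM and CPM of all aligned reads, with replicate numbers beside the points and bars for the mean ± SD. On the first and second scales each arm has its 4 ALAS12-KO libraries above its 3 WT libraries, and on the third scale the groups overlap for both arms.

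The gap between the groups depended on the denominator. With TMM factors, which scale libraries so that most miRNAs are level, miR-21a-5p had 64165, 47845, 69900 and 64389 CPM in ALAS12-KO, against 38695, 34974 and 34224 CPM in WT. On that scale the lowest ALAS12-KO library was 23.6% above the highest WT library, where 10.9% of tested miRNAs had all ALAS12-KO libraries above WT. Scaled to all aligned reads, which include reads outside any miRNA, the values were 20342, 10245, 28616 and 27220 CPM in ALAS12-KO, against 14622, 15848 and 8811 CPM in WT. There ALAS12-KO replicate 2 fell below WT replicates 1 and 2, so the groups overlapped; 2.22% of tested miRNAs had all ALAS12-KO libraries above WT on this scale. miRNAs made up 24.4% to 41.2% of aligned reads in ALAS12-KO and 22.8% to 44.6% in WT, and ALAS12-KO replicate 2 and WT replicate 3 were the lowest of their groups. A value on this scale is the CPM multiplied by that share, and in CPM the groups were apart. The overlap therefore follows by arithmetic from the differing share, and what set the share was not tested.

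For miR-21a-3p the TMM-scaled values were 236, 158, 130 and 163 CPM in ALAS12-KO, against 124, 122 and 107 CPM in WT. The groups stayed apart by 4.24%, on the scale where 10.9% of tested miRNAs had all ALAS12-KO libraries above WT. Scaled to all aligned reads the groups overlapped, at 33.8 to 74.9 CPM in ALAS12-KO against 27.5 to 55.2 CPM in WT. With miR-122-5p left out of the total they overlapped, at 308 to 495 CPM in ALAS12-KO against 281 to 315 CPM in WT, while miR-21a-5p stayed apart by 6.29%. On that scale 4.01% of the 449 tested miRNAs other than miR-122-5p had all ALAS12-KO libraries above WT.

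On the fit over all 450 tested miRNAs with TMM factors, the log2 fold change of ALAS12-KO over WT was 0.78 ± 0.14 (SE) for miR-21a-5p and 0.54 ± 0.22 for miR-21a-3p. The first was the 28th highest of the 450 values and the second the 63rd. With library totals in place of TMM factors they were 0.62 ± 0.20 and 0.34 ± 0.16, and the median of all miRNAs moved to −0.12 from 0.06. Relative to that median, miR-21a-5p stood 0.72 to 0.78 higher over the 6 scalings tried and miR-21a-3p 0.46 to 0.49. A change of scaling moves nearly all miRNAs alike, so these narrow ranges follow largely from subtracting the median. Without ALAS12-KO replicate 1, the library lowest in markers of other liver cells, the log2 fold change was 0.74 for miR-21a-5p and 0.33 for miR-21a-3p. The edgeR quasi-likelihood test called 0% of the 450 miRNAs at an adjusted p of 0.05, with 84 at an unadjusted p under 0.05. limma-voom called 0 as well, and DESeq2 called 4.67%; whether the arms were called is not given, since they were chosen on these values.

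**Figure D2:**
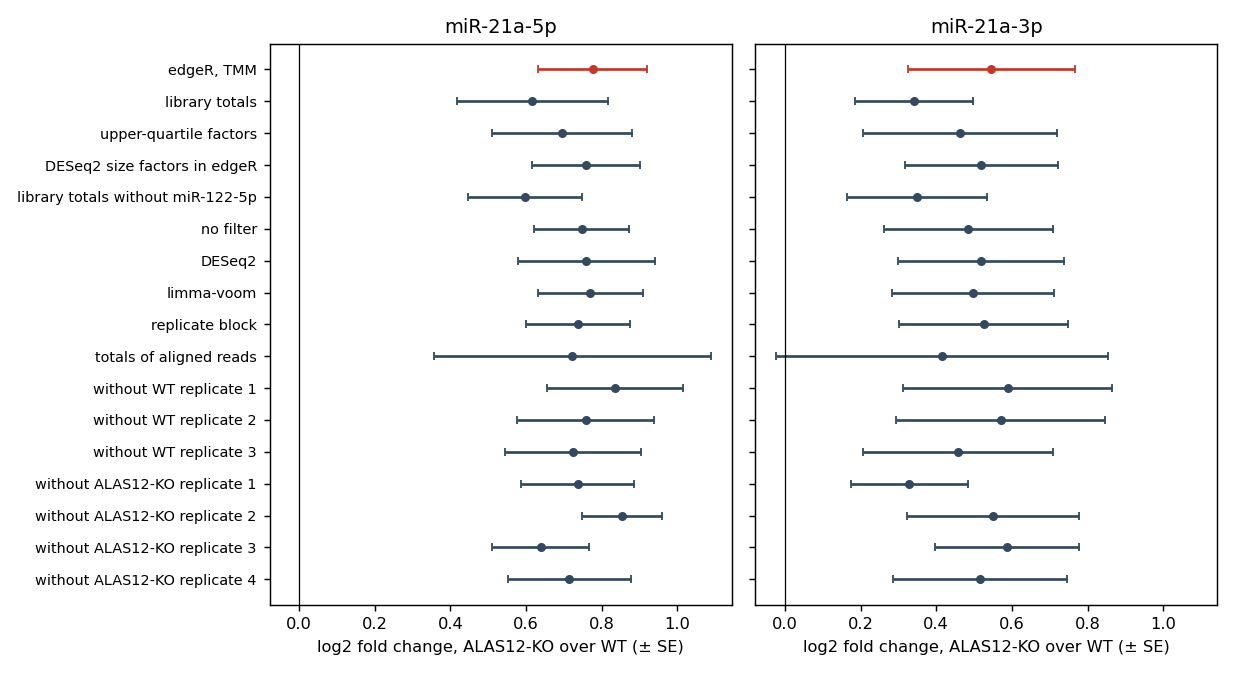
Log2 fold change of ALAS12-KO over WT (± SE) for miR-21a-5p (left) and miR-21a-3p (right) under each scaling, tool and left-out library. Every point of both arms lies above 0, from 0.60 to 0.85 for miR-21a-5p and from 0.33 to 0.59 for miR-21a-3p.

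The ALAS12-KO libraries also differed more among themselves in miR-21a-5p than the WT libraries did. In CPM the highest ALAS12-KO library was 1.84 times the lowest, against 1.18 times in WT, though a range over 4 libraries tends to exceed 1 over 3. Among the 10 most abundant miRNAs, the coefficient of variation in ALAS12-KO was 26.2% for miR-21a-5p and 40.6% for miR-126a-3p, and 3.27% to 8.60% for the other 8. In WT it was 8.34% for miR-21a-5p. Each of the 10 varied more in ALAS12-KO than in WT except miR-148a-3p (6.52% against 11.3%), so the wider spread was not particular to miR-21a-5p. With TMM factors miR-21a-5p had 15.5% in ALAS12-KO, within the 9.90% to 22.8% of the same 8. On that scale all 10 varied more in ALAS12-KO than in WT. The spread of the arms also changed places with the scaling. In CPM the ALAS12-KO libraries ranged 1.84-fold for the 5p arm and 1.37-fold for the 3p arm, while in TMM-scaled CPM they ranged 1.46-fold and 1.82-fold.

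The ratio of the arms needs no scaling, because both counts come from 1 library. In ALAS12-KO replicates 1 to 4, miR-21a-3p amounted to 0.368%, 0.330%, 0.186% and 0.254% of miR-21a-5p, against 0.321%, 0.348% and 0.313% in WT replicates 1 to 3. ALAS12-KO replicates 1 and 2 lay at or above the WT level, replicates 3 and 4 below every WT library, and the groups overlapped. The exact binomial 95% interval was 0.178% to 0.193% in ALAS12-KO replicate 3 and 0.244% to 0.263% in replicate 4, against a lowest WT bound of 0.293%; such intervals cover counting error only. The 2 libraries with the lowest ratio were those with the most miR-21a-5p, which is partly built in because miR-21a-5p is the divisor. With TMM factors ALAS12-KO replicate 1, which had the highest ratio, had nearly as much miR-21a-5p as replicate 4 (64165 against 64389 CPM).

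The mean ratio was 0.284% ± 0.0813 in ALAS12-KO and 0.327% ± 0.0186 in WT (SD, n = 4 and n = 3). On the log2 scale ALAS12-KO minus WT was −0.25 ± 0.25 (SE), from a limma fit over the 130 hairpins with both arms tested. That difference rested on single libraries, and was −0.06 without ALAS12-KO replicate 3 and −0.39 without ALAS12-KO replicate 1. limma called 0% of the 130 ratios, with 7 at an unadjusted p under 0.05.

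Set among the 130 hairpins, miR-21a was strongly one-sided. Its minor arm averaged 0.296% of its major arm as a geometric mean over the 7 libraries, the 17th lowest, against a median of 6.84% over all hairpins. The standard deviation of its log2 ratio within ALAS12-KO was 0.44, against a median of 0.38 over all hairpins, and within WT it was 0.08 against a median of 0.20. Among the 12 hairpins whose arms both averaged at least 100 CPM, its value within ALAS12-KO ranked 4 from the highest. The low ratios of ALAS12-KO replicates 3 and 4 did not appear in the median of the other hairpins. Relative to the mean of the 7 libraries, miR-21a lay at −0.68 and −0.22 on the log2 scale in those replicates. The median of the other hairpins lay at 0.03 and 0.02. That median takes the minor arm over the major, and the 5p arm was the major in 73 of the 130 hairpins. A change shared by all 3p arms could cancel in it, and whether there was such a change was not tested.

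**Figure D3:**
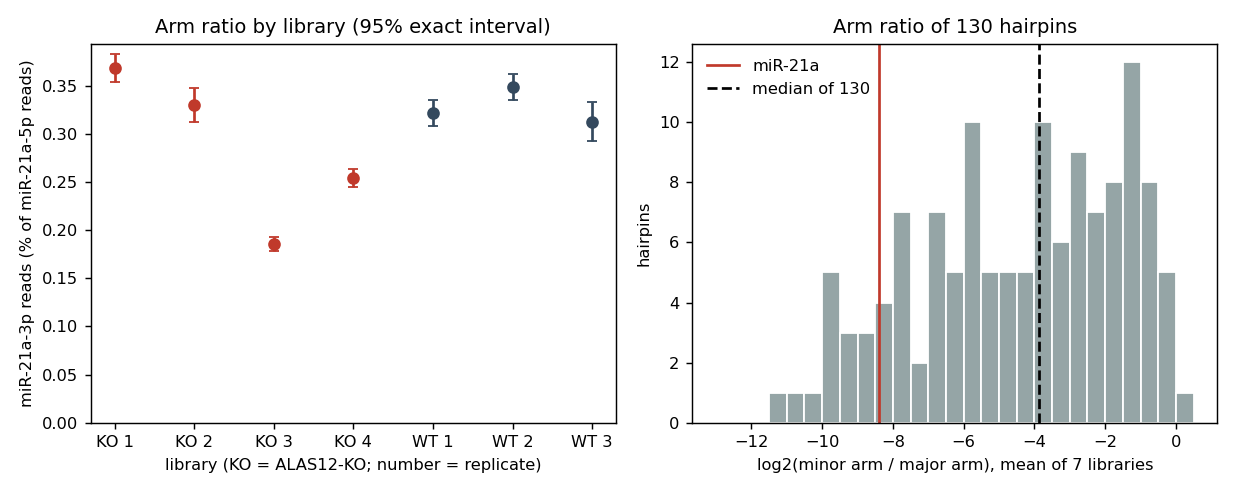
Left, miR-21a-3p reads as a percentage of miR-21a-5p reads in each library with exact 95% intervals; ALAS12-KO replicates 3 and 4 lie below the other 5 libraries. Right, the log2 ratio of minor to major arm of 130 hairpins, averaged over 7 libraries, with miR-21a (solid line) at −8.40 left of the median (dashed line) at −3.87.

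miR-21c shares the 5p seed, and miR-21b differs from it within the seed. Counted from the 5′ end, miR-21b differs from miR-21a-5p by C4U, G18A, G21U and A22C, and miR-21c by A16G, G18A, U19C, U20A and G21A. The lengths also differ, with 23 bases in miR-21b and 21 in miR-21c against 22 in miR-21a-5p. Mir21b lies on chromosome 3 at 29636744 to 29636851 in an intron of Egfem1, and Mir21c on chromosome 8 at 128278148 to 128278225, outside any annotated gene. miR-21c was the only other name with the AGCUUAU seed among the 1675 of 1966 names that had a RefSeq sequence, and none shared the 3p seed, AACAGCA. miR-21c had 3, 2, 6 and 4 reads in ALAS12-KO and 2, 2 and 0 reads in WT and did not pass the filter. miR-21a-5p had 424479 to 1322291 reads in ALAS12-KO and 297781 to 779990 reads in WT.

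miR-21b had 16, 15, 45 and 28 reads in ALAS12-KO, against 23, 21 and 11 reads in WT, and its log2 fold change was 0.65 ± 0.30. Scaled to 1000000 reads of miR-21a-5p this came to 23.5 to 35.3 in ALAS12-KO and 26.9 to 36.9 in WT, so the groups overlapped on that ratio. Whether these reads came from Mir21b itself was not tested. Among the names with a RefSeq sequence, those closest to miR-21a-5p, miR-3965 and miR-3967 at 4 edits, had 0 reads in all libraries, and none came closer to miR-21a-3p than 7 edits.

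The tested miRNAs whose profile over the 7 libraries was most like that of miR-21a-5p were miR-676-5p, miR-378c, miR-378a-3p, miR-22-5p and miR-22-3p. With TMM factors the nearest 5 were the same, but a library factor shifts all profiles alike, so this list could hardly change. The place of miR-676-5p rested on the 1 added to its low CPM. With 0.1 added instead, an alternative chosen after the data were seen, it ranked 26, the other 4 were the nearest 4, and miR-872-5p was the next. Likeness was the root mean square difference of log2(CPM + 1), each profile centred on its own mean, and it was 0.08, 0.09, 0.13, 0.14 and 0.14, against a median of 0.48 over the 449 other miRNAs. The profiles share their libraries and denominators, so the value describes these 7 libraries only. miR-378a-3p, from an intron of the metabolic coactivator gene Ppargc1b, and miR-378c have nearly the same sequence and may share reads, and both miR-22 arms come from 1 hairpin.

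miR-676-5p was rare, at 2.56 ± 1.04 CPM in ALAS12-KO and 1.19 ± 0.263 CPM in WT (SD, n = 4 and n = 3). miR-378a-3p had 1060 ± 364 CPM in ALAS12-KO and 642 ± 66.7 CPM in WT. miR-22-3p had 4028 ± 953 CPM in ALAS12-KO and 3101 ± 297 CPM in WT. Their log2 fold changes were 1.24 ± 0.34, 0.86 ± 0.19 and 0.53 ± 0.14, whose sign largely follows from choosing profiles like that of miR-21a-5p. With each group centred on its own mean, miR-676-5p, miR-378c, miR-378a-3p, miR-22-5p and miR-22-3p ranked 1, 3, 12, 6 and 4 in likeness. None of the 3 neighbours with a RefSeq sequence had the seed of miR-21a-5p. The other arm of the hairpin was not among the nearest. miR-21a-3p ranked 54 at 0.32, and it had its highest level in ALAS12-KO replicate 1, where miR-21a-5p lay 0.09 above its own mean on the log2 scale.

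**Figure D4:**
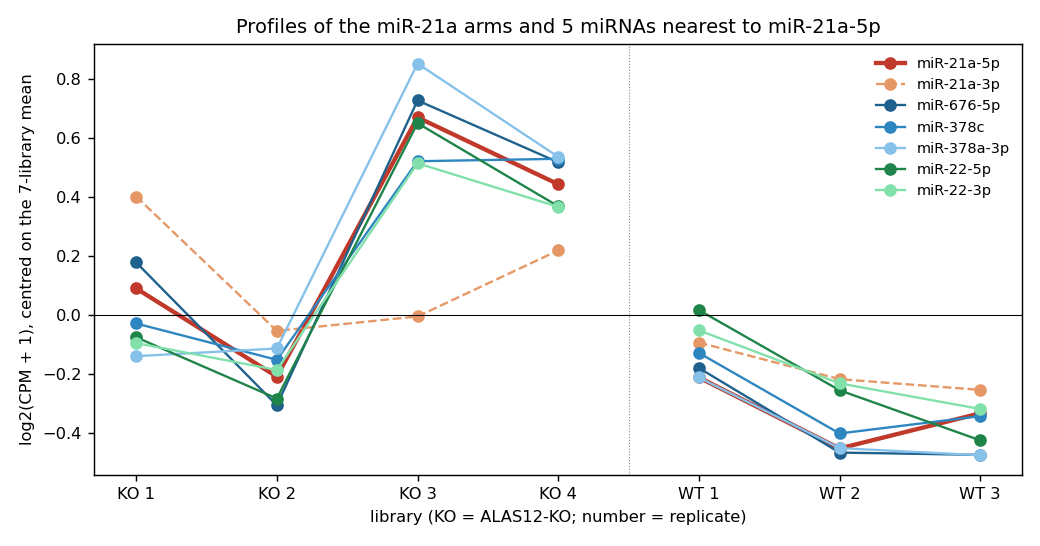
Log2(CPM + 1) of both miR-21a arms and the 5 nearest profiles in each library, centred on the mean of the 7 libraries. miR-21a-5p and these 5, of which miR-676-5p is not among the nearest with a pseudocount of 0.1, are highest in ALAS12-KO replicates 3 and 4, while miR-21a-3p (dashed) is highest in replicate 1.

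Other miRNAs known for injury, inflammation, hypoxia or p53 had members on both sides of 0. Of 12 on that list, 6 had a positive and 6 a negative log2 fold change. The median was −0.05, against 0.06 over all tested miRNAs. The edgeR test called 0 in either direction, with 3 of the 12 at an unadjusted p under 0.05, against 84 of 450 over all tested. In CPM 3 of the 12 had every ALAS12-KO library above every WT library. For 2, miR-155-5p and miR-223-3p, every ALAS12-KO library was below every WT library. Over all tested miRNAs these shares were 5.33% and 15.3%. miR-34a-5p, a target of p53, had 2321, 2276, 2345 and 2133 CPM in ALAS12-KO, against 1444, 1206 and 981 CPM in WT. Its log2 fold change was 1.10 ± 0.19 (edgeR adjusted p = 0.103). Its rare passenger arm, miR-34a-3p, had 1.37 to 2.69 CPM in ALAS12-KO against 0.592 to 0.998 CPM in WT and a log2 fold change of 1.48 ± 0.33 (edgeR adjusted p = 0.113). miR-203-3p, known from epithelia, had 1872 to 2091 CPM in ALAS12-KO against 1412 to 1493 CPM in WT and a log2 fold change of 0.63 ± 0.17 (edgeR adjusted p = 0.156).

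miR-146a-5p and miR-155-5p, both induced by NF-kB, had log2 fold changes of −0.52 ± 0.29 and −0.36 ± 0.26 (SE), and the myeloid miR-223-3p had −0.41 ± 0.25. miR-210-3p, induced by hypoxia, had 0.12 ± 0.22 and miR-146b-5p 0.00 ± 0.18, and both changed sign with library totals. The remaining members were miR-212-3p and miR-132-3p of 1 cluster at −0.63 ± 0.51 and −0.25 ± 0.44, miR-31-5p at −0.09 ± 0.17 and miR-215-5p, a relative of miR-192, at 0.36 ± 0.22.

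The list of growth miRNAs had 6 of 11 positive and 5 negative, a median of 0.18 and 0 called, with 0 at an unadjusted p under 0.05. miR-19b-3p of the oncogenic miR-17-92 cluster had −0.25 ± 0.15 and miR-93-5p of the miR-106b cluster 0.18 ± 0.16, and miR-93-5p was negative with library totals (−0.02). The fibrosis list had 6 of 10 tested members positive and 4 negative, a median of 0.05 and 0 called, with 1 at an unadjusted p under 0.05. miR-29a-3p, a repressor of collagens, had 0.13 ± 0.14 and changed sign with library totals (−0.06). miR-29c-3p, miR-29b-3p and miR-27b-3p, the next most abundant, had 0.11 ± 0.16, 0.01 ± 0.15 and 0.09 ± 0.14, and also changed sign. miR-30c-5p, less abundant than these, had 0.50 ± 0.17 and was the member at an unadjusted p under 0.05. With library totals the medians of both lists were negative, at −0.02 for growth and −0.14 for fibrosis.

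miR-21 is also made in leukocytes, stellate cells and endothelium, and markers of those cells had mostly negative log2 fold changes. Within ALAS12-KO, however, replicates 3 and 4, which had the most miR-21a-5p in CPM, also had higher shares of endothelial, leukocyte and mesenchymal markers than replicates 1 and 2. With TMM factors replicate 1, lowest in all 3 shares, had nearly as much miR-21a-5p as replicate 4 (64165 against 64389 CPM). In WT all 3 shares were highest in replicate 3, while miR-21a-5p was highest in replicate 1 (38577 against 41968 CPM). Endothelial markers took 1.10% to 3.65% of miRNA reads in ALAS12-KO and 3.56% to 5.25% in WT, with 2 of 2 members negative. Leukocyte markers took 0.230% to 0.739% in ALAS12-KO and 0.586% to 0.776% in WT, with 5 of 5 negative. Mesenchymal markers took 0.157% to 0.577% in ALAS12-KO and 0.420% to 0.702% in WT, with 5 of 6 negative. The groups overlapped for all 3 lists.

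Cholangiocyte markers took 0.00544% to 0.0105% in ALAS12-KO and 0.0139% to 0.0243% in WT, and these groups did not overlap. All 5 were negative, but miR-200a-3p, miR-200b-3p and miR-429-3p, of 1 cluster, had −1.31 ± 0.27, −1.30 ± 0.29 and −1.27 ± 0.27, while miR-200c-3p had −0.07 ± 0.28 and miR-141-3p −0.10 ± 0.18. Red cell markers took 9.11e-04% to 0.00203% in ALAS12-KO and 0.00205% to 0.00272% in WT, with 4 of 4 negative, again without overlap. Of all tested miRNAs, 198 of 450 were negative and 15.3% had every ALAS12-KO library below every WT library in CPM. Of these markers none was at 0 in any library, and the edgeR test called 0. Hepatocyte markers were positive for 7 of 7, with a median log2 fold change of 0.34, but miR-122-5p was at −0.0046 with library totals and miR-802-5p at −0.0041 with totals without miR-122-5p. In bulk libraries fewer cells of a type and less RNA per cell cannot be told apart, and the part of cell makeup in the miR-21a values was not tested.

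**Figure D5:**
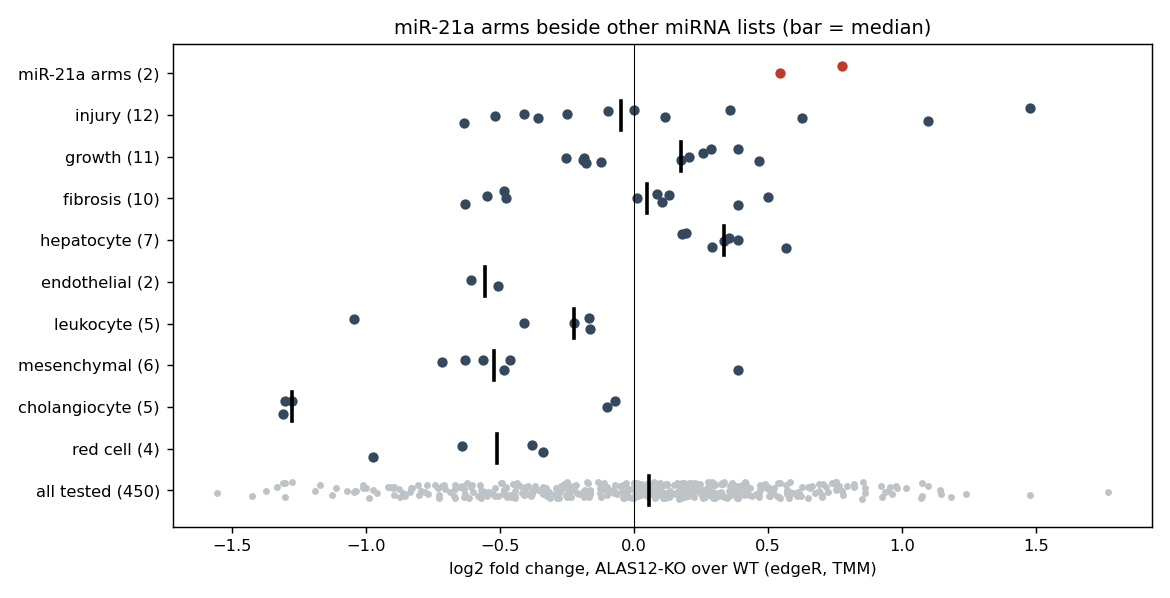
Log2 fold change of ALAS12-KO over WT for both miR-21a arms, the members of 9 lists and all 450 tested miRNAs, with bars at the medians. Both arms lie to the right of 0, the injury, growth and fibrosis lists straddle it, and the hepatocyte list lies to its right with these TMM factors, though not for miR-122-5p with library totals or miR-802-5p with totals without miR-122-5p.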

How the data were processed

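The deposited files, 1 for each library, hold whole-number read counts by mature miRNA name with no normalization, as their values show. Per the submitters' processing notes, cutadapt, limma, mm10 and hg38 were used, with no role stated. Which aligner, read counter and miRNA annotation were used is not given in the sources used here. Each file ends in 5 summary entries, which entered neither library sizes nor tests; reads outside any miRNA were 50.9% to 73.7% and unaligned reads 4.54% to 8.00% of all reads. Control RNAs added to the samples were not analysed here, so levels are relative to the other reads of a library. No library was a duplicate: within groups, chi-square over its degrees of freedom was 97.4 to 1104. Reads carry no molecular identifiers.

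CPM are counts scaled to 1000000 summed miRNA reads, where 1 CPM stood for 7.72 to 22.0 reads. Fold changes are ALAS12-KO over WT from the quasi-likelihood fit of edgeR 4.0.16 in R 4.3.3 (robust, TMM factors, Benjamini-Hochberg threshold 0.05; low counts removed by filterByExpr, minimum 10) over all tested miRNAs. Arm ratios were fitted with limma 3.58.1 after adding 0.5 to each count. Both fits were checked on simulated counts. DESeq2 1.42.0, limma-voom, other scalings, no filter, a block for replicate number and fits without each library in turn were tried. Sequences came from RefSeq (GRCm38.p6), positions from GENCODE M21 on GRCm38 (mm10), and the fold from RNAfold 2.7.2. The members, the lists and the alternatives were chosen with earlier results of these data known. Named besides the arms were their relatives, the 5 nearest profiles and the injury list members. Of the 10 most abundant miRNAs and of the other lists only some were named, not always the most abundant. miR-590-5p and miR-590-3p, also planned, were not analysed here.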

Additional observations from a re-analysis of the deposited data

Results flagged for a closer look

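Of 27 measures checked in ALAS12-KO (n = 4), 1 held a library that stood away from the rest; by chance about 1.35 would (1 in 20). miR-155-5p, an immune miRNA of the injury list, had 7.14 CPM in ALAS12-KO replicate 1, against 16.5 to 17.9 CPM in the other ALAS12-KO libraries and 18.5 to 22.3 CPM in WT. Its distance from the next lowest ALAS12-KO library made up 0.875 of the whole ALAS12-KO range, past Dixon's 95% limit. Leukocyte markers were also lowest in this library, at 0.230% of miRNA reads; their part in the value was not tested. Neither arm of miR-21a nor their ratio met this criterion.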

How the results depend on the processing

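Over 16 alternatives the log2 fold change stayed positive and within 1 SD of its value for both arms. The arm ratio difference stayed negative and within 1 SD over 9. This SD is that between single libraries, pooled within groups, and not an error of the fold change. It is a wide measure: for the arm ratio a move from −0.25 to −0.06 counted as within it. Leaving out 1 library gave 0.64 to 0.85 for miR-21a-5p, 0.33 to 0.59 for miR-21a-3p, −0.39 to −0.06 for the arm ratio, −0.13 to −0.01, 0.075 to 0.21 and −0.10 to 0.06 for the medians of the injury, growth and fibrosis lists, 0 to 1 edgeR calls and 108 to 136 miRNAs without overlap (93 with all libraries). The 1 call came without ALAS12-KO replicate 2. The median of the injury list moved to −0.22 with library totals and −0.23 with totals without miR-122-5p. Growth moved to −0.016 and −0.014 with those totals, and to 0.094 with upper-quartile factors. Fibrosis moved to −0.14 with both totals, and the median of all tested miRNAs, 0.06 with TMM factors, to −0.12. Calls over all miRNAs were 2 with library totals, 13 without a filter and 21 with DESeq2. The causes were not tested. Totals of aligned reads, chosen after the data were seen, gave 0.72 ± 0.36 and 0.42 ± 0.44 (SE) for the arms, a growth median of 0.042, and 23 miRNAs without overlap. For 67 other miRNAs, 33 of 1072 values moved by over 1 SD, 32 of them downward. These 67 were the tested list members, the most abundant miRNAs and the nearest profiles, and not all are named here. Replicate numbers showed no sign of pairing the libraries, though 3 numbers are too few to exclude it. Deviations of same-numbered libraries correlated at −0.02, −0.48 and 0.03 over 450 miRNAs. None of the 3 ALAS12-KO libraries correlated best with its own number. With a replicate block the values were 0.74, 0.53 and −0.21 for the 5p arm, the 3p arm and their ratio, with 0 calls. ALAS12-KO replicate 4 has no WT partner. Depth limits miR-21b and miR-21c, at 0 to 45 reads, and 3 or 4 libraries a group limit the rest.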
